A study of Drosophila melanogaster with 3 samples.

Results

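The genes for the factors that start, extend and end protein synthesis were examined in a map of FoxP binding in whole Drosophila melanogaster prepupae. They are the protein-coding genes whose symbol starts with eIF, eEF or eRF followed by a digit, and the rule used the symbol and no measured value: 53 of the 13968 protein-coding genes on the chromosome arms. The 53 comprise 44 initiation factor genes, 7 elongation factor genes and 2 release factor genes. The chromatin came from 1 group of 3 biological replicates of a single transgenic line. Its flies carried FoxP, a forkhead transcription factor also called fd85E, with eGFP fused to the C-terminal end, and an antibody to GFP was used to pull down the bound DNA. Both sexes were mixed in each pool, every animal was a prepupa, and the labels give no exact age, no driver of the transgene and no separation of tissues. No group without the tagged protein was analysed here, so every comparison below is between these genes and other genes of the same maps, or between replicates.

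Translation begins when initiation factors bring the small ribosomal subunit and the initiator tRNA to the capped end of an mRNA and find the start codon. Elongation factors then deliver each aminoacyl-tRNA and move the ribosome along, and release factors free the finished protein at a stop codon. The prepupa is the stage at the start of metamorphosis, and whole animals mix the signal of all tissues.

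Summits, the positions of highest enrichment that the authors gave for each region, were counted when they lay within 500 bp of an annotated start of a gene. In the thresholded list, which is the top 2415 of the pooled list by signal value, 8 of the 53 translation factor genes had such a promoter summit. That is 15.1%, against 8.96% of all protein-coding genes. Of the 7 elongation factor genes 4 had one (eEF1gamma, eEF2, eEF1alpha1 and eEF5). Of the 44 initiation factor genes 4 had one (eIF6, eIF4EHP, eIF3h and eIF1), a share of 9.09%, which is near that of all genes. Neither release factor gene had one. Counting summits anywhere inside the gene as well added no member, so the count stayed at 8, against 12.3% of all protein-coding genes. The numbers in each role are small, and they are given as counts with no test.

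**Figure D1:**
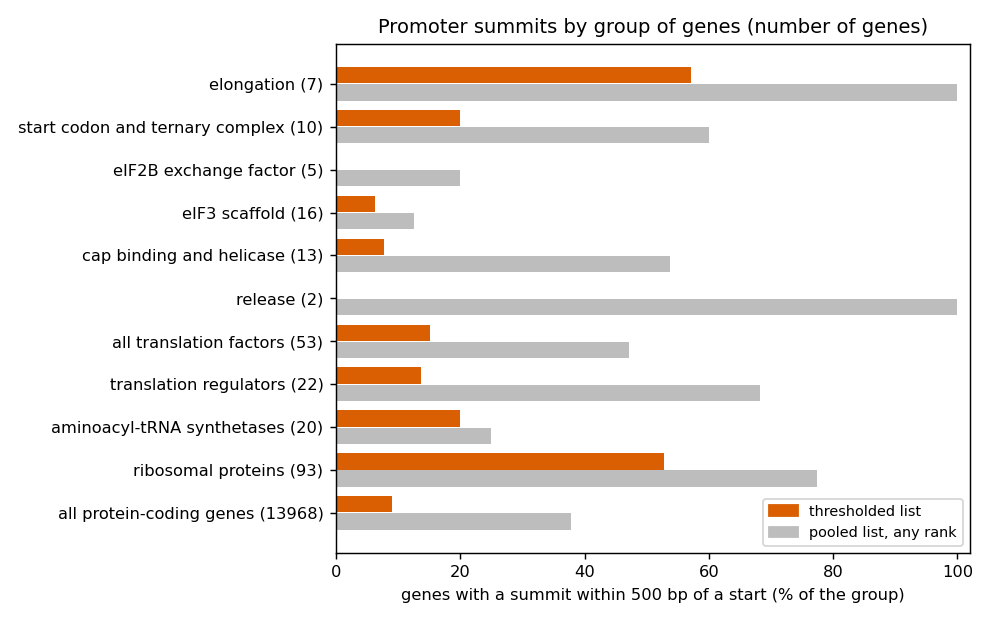
Share of genes in each group (%, horizontal axis) with a summit within 500 bp of a start, in the thresholded list (orange) and in the pooled list at any rank (grey), with the number of genes in brackets. The elongation group has the longest orange bar of the translation factor roles (57.1%), and the bar of all protein-coding genes stands at 8.96%.

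At 6 thresholded regions of these genes the sequence at or just upstream of the summit is shown. The 6 regions differ in where they lie, from the start of the gene to an intron and an intergenic site. They are not simply the best-ranked: the promoter regions of eIF6 (rank 73), eEF1alpha1 (rank 953) and eEF5 (rank 1318) are among those not shown. Each run comes from dm6 in the direction of the gene, 5′ to 3′, and capitals mark matches to the promoter motifs described further on. The window was centred on the summit, or moved upstream until it held at most 30 bases of untranslated exon, which for eEF2 leaves the summit outside the printed bases. The first is the intergenic region nearest eEF1gamma (chr3R:29214349-29214449, plus strand), the second lies between eIF4EHP and CG18428 (chr3R:24109108-24109208, minus strand), the third ends 30 bases into eEF1gamma (chr3R:29220101-29220201, plus strand), the fourth is in an intron of eIF3h (chr2L:5052468-5052568, minus strand), the fifth ends 30 bases into eEF2 from its outermost start (chr2L:21682135-21682235, minus strand) and the last holds the start of eIF1 (chr3L:3223264-3223364, plus strand).
eEF1gamma, intergenic: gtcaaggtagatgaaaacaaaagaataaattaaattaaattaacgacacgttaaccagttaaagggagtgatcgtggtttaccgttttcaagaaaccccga
eIF4EHP: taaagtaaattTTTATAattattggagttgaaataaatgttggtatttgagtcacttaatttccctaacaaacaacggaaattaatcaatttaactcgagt
eEF1gamma, start: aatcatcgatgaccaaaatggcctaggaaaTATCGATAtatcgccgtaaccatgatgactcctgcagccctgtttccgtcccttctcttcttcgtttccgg
eIF3h: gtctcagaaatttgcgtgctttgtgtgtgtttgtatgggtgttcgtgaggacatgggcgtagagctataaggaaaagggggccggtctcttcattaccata
eEF2: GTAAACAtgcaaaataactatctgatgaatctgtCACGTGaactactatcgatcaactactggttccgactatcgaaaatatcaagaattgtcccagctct
eIF1: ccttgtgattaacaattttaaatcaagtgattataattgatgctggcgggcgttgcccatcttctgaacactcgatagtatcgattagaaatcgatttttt

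The elongation factor genes are taken first. eEF1gamma encodes a subunit of the complex that recharges eEF1alpha with GTP. Its promoter region (3R, 29219964 to 29220379) ranked 332 in the thresholded list with a signal value of 341. Signal values are the authors' own score per region, have no stated scale, and are read within a list. In the separate lists of replicates 1, 2 and 3 the region had signal values of 117, 118 and 108 and ranks of 410, 342 and 279. The pooled summit lay at the annotated start itself, and those of the 3 replicates lay 0, 3 and 0 bp downstream of it (SD 1.73 bp, n = 3). All 3 replicates therefore placed the summit within 3 bp of the same base, whereas over 2312 thresholded regions matched in all replicates the median SD was 23.5 bp.

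eEF2, the factor that moves the ribosome on by a codon, had its summit 3 bp downstream of a start (2L, 21681905 to 21682320, rank 755, signal value 242). The signal values were 79.9, 80.3 and 73.6 and the ranks 1039, 850 and 716 in replicates 1, 2 and 3. The replicate summits lay 35, 10 and 5 bp downstream of the gene's nearest start, and the summit positions had an SD of 36.7 bp (n = 3). That SD exceeds the spread of 35, 10 and 5 because eEF2 has 2 annotated starts, and offsets are counted from the nearer start.

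eEF1alpha1 encodes the factor that brings aminoacyl-tRNAs to the ribosome. Its region (2R, 11891889 to 11892304, rank 953, signal value 216) lay 25 bp upstream of an internal start, in an intron of a longer transcript. The signal values were 53.3, 108 and 41.7 and the ranks 2405, 436 and 2535 in replicates 1, 2 and 3. The region was high in replicate 2 and close to rank 2415, the length of the thresholded list, in the other replicates, on the better-ranked side in replicate 1 and on the other side in replicate 3. The summit position varied little (SD 4.16 bp, n = 3). Counting only the outermost start of each gene, eEF1alpha1 had no promoter summit in the thresholded list. Near that start, a second region ranked 2628 in the pooled list (signal value 128), and 1335, 10617 and 4627 in replicates 1, 2 and 3, so in replicate 1 it was the better-ranked of the 2.

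eEF5, known elsewhere as eIF5A, helps the ribosome past sequences on which peptide bonds form slowly. Its summit (2R, 24057706 to 24058121, rank 1318, signal value 185) lay 61 bp downstream of a start, in an intron. The signal values were 81.6, 58.6 and 49.2 and the ranks 990, 1607 and 1790 in replicates 1, 2 and 3. The replicate summits lay 26, 138 and 68 bp downstream, the widest spread of the 9 promoter regions of these genes (SD 56.6 bp, n = 3).

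The remaining 3 elongation factor genes had weaker promoter regions, below the thresholded list. The best region of eEF1alpha2, the second eEF1alpha copy, ranked 8042 in the pooled list (signal value 67.4), that of eEF1beta, an exchange factor subunit, 10777 (57.4) and that of eEF1delta 12406 (52.9). All 7 elongation factor genes therefore had a promoter summit somewhere in the pooled list of 30000 regions, which also holds background regions. The share over all protein-coding genes was 37.8%, and over the 53 translation factor genes 47.2% (25 genes).

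**Figure D2:**
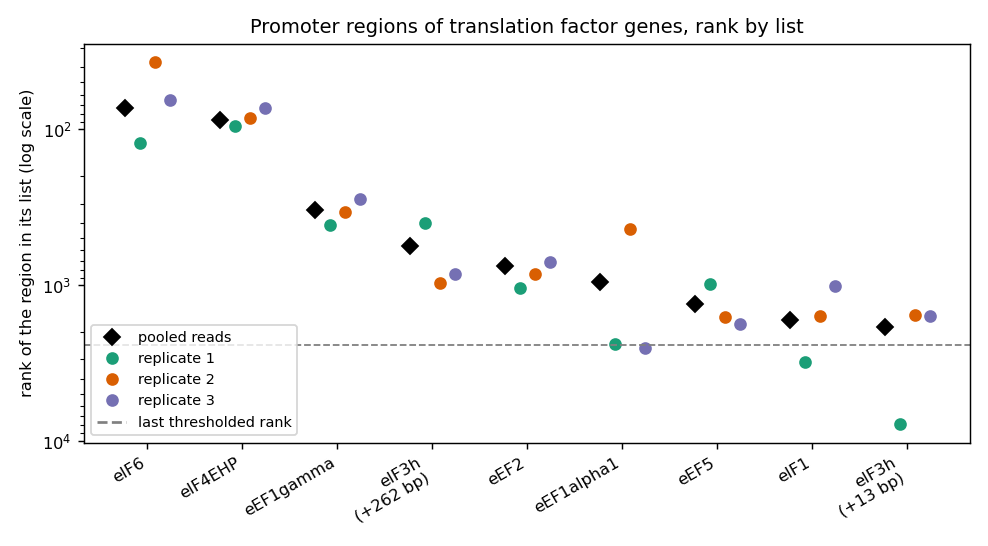
Rank of the 9 thresholded promoter regions of translation factor genes (vertical axis, log scale, rank 1 at the top) in the pooled reads (diamonds) and in the lists of replicates 1, 2 and 3 (circles), with the last thresholded rank of 2415 as a dashed line. The eIF4EHP ranks of 95, 85 and 73 lie close together, while those of eEF1alpha1 span 436 to 2535.

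The initiation factor genes with a promoter summit included the 2 best-ranked regions of the set. eIF6 encodes a factor that keeps the large ribosomal subunit from joining the small one too early and acts in making that subunit. Its region (2R, 23850291 to 23850513, rank 73, signal value 655) was 223 bp wide, against a median of 416 bp, with a summit 88 bp upstream of the start and inside an intron of the overlapping gene ytr. The signal values were 183, 274 and 192 and the ranks 122, 37 and 65 in replicates 1, 2 and 3. The replicate summits lay at -92, -84 and -79 bp, negative being upstream (SD 6.56 bp, n = 3), so all 3 fell on the same side of the start within 13 bp of each other.

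eIF4EHP encodes a cap-binding protein that competes with eIF4E and represses translation of its target mRNAs. Its promoter region (3R, 24109072 to 24109192, rank 87, signal value 598) was 121 bp wide and lay 198 bp upstream of the start. The summit was at -178 bp from the start of CG18428, which is transcribed in the opposite direction, so the region cannot be assigned to either gene. The signal values were 215, 203 and 183 and the ranks 95, 85 and 73 in replicates 1, 2 and 3, and the replicate summits lay at -239, -189 and -231 bp (SD 26.9 bp, n = 3). All 3 replicates thus had a region of rank 95 or better here.

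The eIF4EHP gene spans 3R, 24063077 to 24108960, and its introns held 3 further thresholded regions. The one at 24105538 to 24105953 (rank 1579, signal value 168) had its summit 3214 bp inside eIF4EHP and 17 bp downstream of a start of Syx1A, a gene for the synaptic membrane protein syntaxin that lies within eIF4EHP. The second, 9778 bp from the eIF4EHP start, ranked 1587 (signal value 168) and had ranks of 1881, 2229 and 1282 in replicates 1, 2 and 3. The third, 2559 bp from that start, ranked 1887 (signal value 154) and 1394, 3185 and 3040 in the replicates. For both the second and the third, the start of Syx1A was nearer to the summit than that of eIF4EHP. The second was held by all 3 replicates, which means that a region among the 2415 best-ranked of each replicate overlapped it, whereas the third was held by replicate 1 alone.

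eIF3h encodes a subunit of eIF3, the scaffold that joins the small subunit and the mRNA. It had 2 thresholded promoter summits. The stronger (2L, 5052310 to 5052725, rank 565, signal value 274) lay in an intron 262 bp downstream of a start, with signal values of 119, 74.7 and 68.6 and ranks of 399, 976 and 852 in replicates 1, 2 and 3. The weaker (2L, 5052559 to 5052974, rank 1865, signal value 155) lay 13 bp downstream, with signal values of 27.6, 59.5 and 51.9 and ranks of 7884, 1556 and 1575. The weaker region was well ranked in replicates 2 and 3 and low in replicate 1, where the overlapping region of the stronger summit was the higher. Both summits were also within 500 bp of the start of senju, which runs the other way, at -325 and -76 bp from it.

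eIF1, which acts in choosing the start codon, had its summit 27 bp upstream of the start (3L, 3223106 to 3223521, rank 1671, signal value 164). The signal values were 46.2, 58.9 and 63.8 and the ranks 3145, 1591 and 1009 in replicates 1, 2 and 3, so replicate 1 had it outside its 2415 best-ranked regions. In replicates 2 and 3 another region ranked higher, at -333 and -326 bp from the eIF1 start (ranks 526 and 379, signal values 99.4 and 95.3). That region lay between the starts of eIF1 and RpL28 and nearer to that of RpL28, so it cannot be assigned to eIF1. It is absent from the promoter summits of eIF1 in replicate 1 and in the pooled list. The pooled summit lay at -354 bp from the start of RpL28, a gene for a protein of the large ribosomal subunit that is transcribed in the opposite direction.

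**Figure D3:**
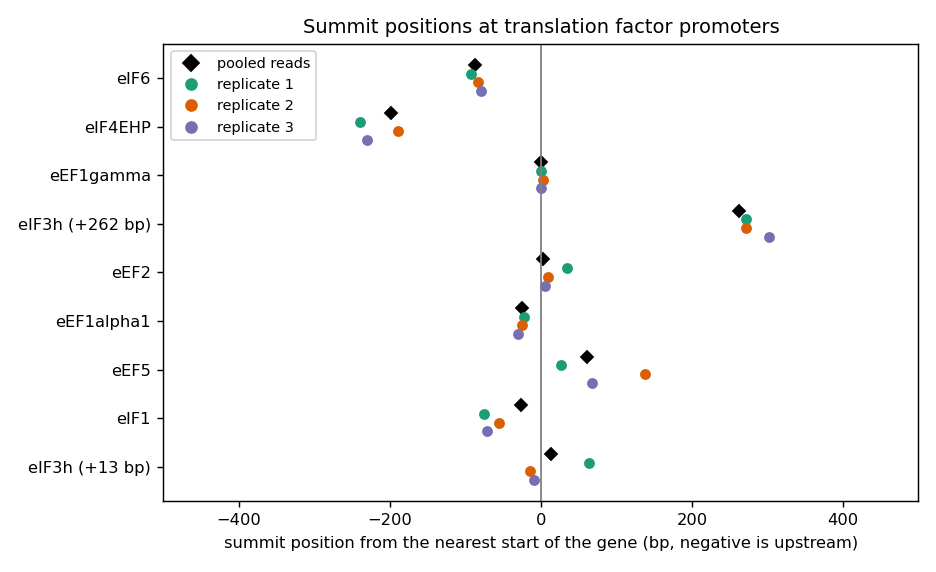
Position of the summit relative to the nearest annotated start of the gene (bp, horizontal axis, negative is upstream) at the 9 thresholded promoter regions, in the pooled reads (diamonds) and in each replicate (circles). The eEF1gamma summits lie within 3 bp of the start, those of eIF4EHP between -239 and -189 bp in the replicates, and the stronger eIF3h summit at 262 bp downstream.

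The 9 pooled promoter summits, with both of eIF3h counted, lay from -198 to 262 bp from a start. Their median signed position was 0 bp, and replicates 1, 2 and 3 gave medians of 0, -14 and -9 bp. Upstream and downstream positions offset each other in such a median, and none was taken over all thresholded promoter regions. Of the 8 genes, 5 had a promoter region held by all 3 replicates (eIF6, eEF1gamma, eIF3h, eEF2 and eEF5), a share of 9.43% of the translation factor genes against 5.24% of all protein-coding genes. eIF1 was missed by replicate 1 and eEF1alpha1 by replicate 3. eIF4EHP was missed by replicate 1 only because narrow regions 41 bp apart at their summits did not overlap. With a replicate summit within 200 bp in place of an overlap, a rule added after this had been seen, 6 genes passed (11.3%), against 5.2% of all protein-coding genes. Keeping only regions held by both other replicates, 7, 5 and 6 genes had a promoter summit without replicates 1, 2 and 3, while positions and ranks were still those of the pooled list. The 5 without replicate 2 lacked eEF1alpha1, eIF1 and eIF4EHP.

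Higher-ranked regions lay near eIF2Bbeta and eEF1gamma, outside the 500 bp window. The region of rank 15 (X, 2703715 to 2704041, signal value 1867) had its summit at -697 bp from eIF2Bbeta, which encodes a subunit of the factor that recharges eIF2 with GTP, and at -22 bp from Ugalt, a gene for a UDP-galactose transporter. It had signal values of 614, 684 and 571 and ranks of 21, 1 and 9 in replicates 1, 2 and 3. With a window of 1000 bp this region made eIF2Bbeta the only member gained, for 9 members in all. The region of rank 32 (3R, 29214285 to 29214544, signal value 960) lay outside protein-coding genes, and its nearest start was that of eEF1gamma, with the summit at -5773 bp. Its signal values were 336, 371 and 259 and its ranks 34, 13 and 35 in replicates 1, 2 and 3. This region was thus among the 35 best-ranked in each replicate and had a higher signal value than the region at the eEF1gamma start in all 3.

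Further translation factor genes had promoter regions just below the thresholded list, whose lowest signal value was 134. The best promoter region of 6 members ranked below the thresholded list and within the first 4830 of the pooled list (11.3% of the members, against 6.77% of all protein-coding genes). eIF4A, the RNA helicase that unwinds the 5′ end of mRNAs, was closest, with a summit 14 bp downstream of a start (rank 2445, signal value 133). In replicates 1, 2 and 3 the matching regions ranked 2491, 2373 and 4041. eRF3, the GTPase that acts with eRF1 in release, came next (rank 2515, signal value 132), at -342 bp from its start and -72 bp from that of SC35, a splicing factor gene. Replicates 1 and 3 had this region at ranks 3564 and 2666, and replicate 2 had no region over the summit and no summit within 200 bp of it. Replicate 2 did have an eRF3 promoter summit, at -79 bp (rank 3298). The pooled list held a second one at -133 bp (rank 3740). The other 4 were eIF2beta (rank 3095, signal value 118), a subunit of the factor that brings the initiator tRNA, eIF4H1 (3136, 117), a helper of eIF4A, eIF5B (3642, 107), which acts in joining the subunits, and eIF2Bgamma (4090, 100.6), a subunit of the exchange factor of eIF2.

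Of 16 genes for eIF3 subunits and their paralogs, eIF3h alone had a thresholded promoter summit. That is 6.25%, against 8.96% of all protein-coding genes. In the pooled list at any rank, 2 of the 16 had a promoter summit (12.5%, against 37.8% of all protein-coding genes), eIF3h at rank 565 and eIF3k at rank 19961. For 7 of the 16, no promoter summit was found in any of the 4 lists (pooled and replicates 1, 2 and 3). That is 43.8%, near the 45.1% of all protein-coding genes. Among the 7 were eIF3c, eIF3g1, eIF3i and eIF3j. The other 7 had one in some replicate list but not in the pooled list, at ranks of 9485 or worse. Over the whole set of translation factor genes, 18 had no promoter summit in any of the 4 lists (34%), against 45.1% of all protein-coding genes.

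**Figure D4:**
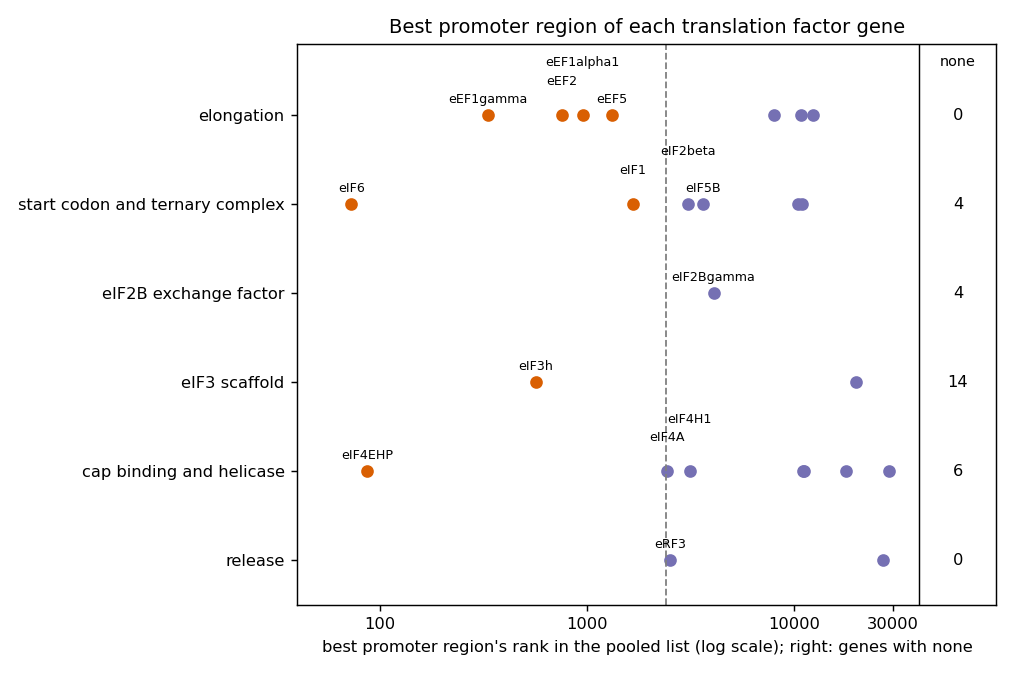
Best promoter region of each translation factor gene by its rank in the pooled list (horizontal axis, log scale), one row per role, with thresholded regions in orange, others in violet and the last thresholded rank of 2415 as a dashed line. The column on the right counts genes with no promoter summit in the pooled list, which are 14 of the 16 eIF3 genes and none of the 7 elongation factor genes.

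Of the 10 genes for start-codon and initiator-tRNA factors, a group in which eIF6 was placed, 2 had a promoter summit (20%, against 8.96% of all protein-coding genes). In the pooled list at any rank 6 of the 10 had one (60%, against 37.8%). Of the 5 eIF2B genes none had one in the thresholded list, against 8.96% of all protein-coding genes. In the pooled list eIF2Bgamma alone had one (20%, against 37.8%). Of the 13 genes named eIF4, eIF4EHP had one (7.69%, against 8.96%), and 7 had one in the pooled list (53.8%, against 37.8%). The eIF4E genes encode the cap-binding subunit. None of the 6 had a promoter summit in the thresholded list, against 8.96% of all protein-coding genes. In the pooled list eIF4E1 and eIF4E4 had one, against 37.8% of all protein-coding genes. eIF4E1 had its best pooled promoter region at rank 11139 and eIF4E4 at rank 28843, and eIF4E3, eIF4E5, eIF4E6 and eIF4E7 had no promoter summit in any of the 4 lists.

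In paralog groups the copy with the better-ranked promoter region was eEF1alpha1 (rank 953, against 8042 for eEF1alpha2), eIF4H1 (rank 3136, against none for eIF4H2) and, in the pooled list, eIF4G2 (rank 11064, against 17793 for eIF4G1, the scaffold protein of the cap-binding complex). The order of the eIF4G pair was the other way in replicate 1, where eIF4G2 ranked 23732 and eIF4G1 10737. The eIF3d, eIF3f and eIF3g pairs had no promoter summit in the pooled list for either copy. eEF1alpha2 had a pooled region of rank 4460 (signal value 95.9) in its 3′ UTR, 3546 bp from its start and -284 bp from the start of Tbca, and ranks there of 3114, 2626 and 3586 in replicates 1, 2 and 3. Near-identical copies can share reads that map to both, which was not tested.

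By chromosome arm, promoter summits were found at 2 of 6 members on 2L (against 8.43% of all protein-coding genes of that arm), 3 of 12 on 2R (8.94%), 1 of 12 on 3L (10.3%) and 2 of 15 on 3R (8.89%). None of the 7 members on X had one (8.33% of all genes there), nor did the 1 member on chromosome 4 (5%). The members had a median length of 1969 bp, against 2164.5 bp over all protein-coding genes, and a median of 1 annotated start in both. The 7 elongation factor genes had a median of 2 starts. The 8 members with a promoter summit also had a median of 2, against 1 for the 45 without. A gene with more starts has more windows in which a summit counts, and the shares were not adjusted for this. The median distance from a start to the nearest thresholded summit was 19913 bp for the 53 members and 17447 bp for 13945 genes on arms with such a summit. In both groups, therefore, the nearest thresholded summit was typically far from a start, and the medians were of similar size.

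Sequences of core promoter elements were searched in the 250 bases before and 50 bases after the outermost start of each gene, on both strands. The DRE, TATCGATA, bound by DREF at many genes used in all cells, was in 15 of the 53 promoters (28.3%), against 9.36% of 13968 promoters. Of the 15 genes, 2 had a promoter summit (eIF6 and eEF1gamma), and the other 13 included eIF3a, eIF3c, eIF3f1, eIF3l, eIF2alpha and eIF2gamma. Over all genes with a DRE, 10.6% had a promoter summit. Within 100 bp of the summit the DRE was found at 2 of the 9 promoter regions of the members and at 3.67% of 1089 thresholded promoter regions. Within 50 bp it was at 1 of the 9 (against 2.02%), and within 200 bp at 2 (against 6.7%). The match in the eEF1gamma sequence printed above spans bases 31 to 38, upstream of the start at base 72.

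Forkhead sites, TGTTTAC or TATTTAC, were in 16 of the 53 promoters (30.2%, against 18.1% of all promoters), and 5 of the 16 genes had a promoter summit. Over all genes with such a site, 9.66% had a promoter summit. At the summits they were found within 100 bp in 2 of the 9 regions, those of eIF6 and eIF4EHP, against 12.5% of thresholded promoter regions. Within 50 bp none of the 9 regions held a forkhead match, against 6.52% of thresholded promoter regions, and within 200 bp 4 did (44.4%, against 24.3%). The Myc E-box CACGTG was in 4 of the 53 promoters (7.55%, against 4.2%), among them eEF2, where the printed sequence also starts with a forkhead match on the other strand. The TATA box TATAAA was in 25 of the 53 (47.2%, against 45.8%), GAGAG, the core of GAGA factor sites, in 8 (15.1%, against 29.7%) and GGTCACACT, the core of the M1BP site, in 3 (5.66%, against 6.04%). Within 100 bp of the 9 summits GAGAG was found at 1, against 37.3% of thresholded promoter regions, and TATAAA at 3, against 30.6%. CACGTG was found there at 1, against 3.21%, and GGTCACACT at none, against 1.93%. A match says only that these letters are in the window.

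The TCT initiator is a pyrimidine-rich start known from ribosomal protein genes. It was searched on the gene's strand as CTTTT or CTTTC with its C within 5 bases of any annotated start. It was found at 6 of the 53 members (11.3%), namely eEF2, eEF5, eIF4A, eIF3i, eIF3m and eIF3f1, against 5.13% of all genes. The C lay 1 base downstream of the start at eIF3m and 4 or 5 bases downstream at the others, none at the start itself. With the outermost start alone, 3 of the 53 members had a match, against 484 of the 13968 genes. None of those members had a promoter summit. Of the 6, eEF2 and eEF5 had a promoter summit. Over all genes, 19.7% of the 716 with a match at any start had a promoter summit, against 8.38% of the 13252 without. Of 93 genes for cytoplasmic ribosomal proteins, 57 had a match at any start (61.3%), and 31 had one at the outermost start.

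Other genes of the pathway were counted in the same way. Among 22 translation regulators and partners, 3 had a promoter summit (13.6%, against 8.96% of all protein-coding genes). They were larp, which encodes an RNA-binding protein (rank 29, signal value 981), pAbp, the poly(A)-binding protein gene (rank 288, 358), and Thor, the gene for the eIF4E-binding repressor 4E-BP (rank 1499, 174), whose summit lay at its start. Counting summits inside the gene as well gave 8 of the 22 (36.4%, against 12.3% of all protein-coding genes). The median length of the 22 was 6272.5 bp, against 2164.5 bp over all protein-coding genes. Among 20 genes for cytoplasmic aminoacyl-tRNA synthetases, which charge tRNAs with amino acids, 4 had a promoter summit (20%, against 8.96%). These were GluProRS (rank 1199, signal value 194), IleRS (1369, 183), AspRS (1965, 151) and AlaRS (2196, 141). Of the cytoplasmic ribosomal protein genes 49 of 93 had one (52.7%), a share close to that of the elongation factor genes (57.1%) and above that of the initiation factor genes (9.09%). These differences were not tested.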

How the data were processed

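FoxP-eGFP ChIP-seq used sonicated chromatin of whole prepupae (fragments of 200 to 800 bp, per the labels). Per the file sheets, the authors made each replicate list from that replicate's alignments and a shared file, also used for their control-normalized signal. The pooled list came from all 3 replicates and that file, and the thresholded list from these 4 lists (IDR). Aligner and peak caller: not given in the sources used here. Read depth is unknown, and no intervals are printed. The deposited signal value is a score with no stated scale. The deposited −log10 q-value was not used. The replicate lists held 30000, 24326 and 22698 regions, and no 2 shared an identical region. The 2415 thresholded regions were the head of the pooled list, and 2395 of them, on the arms, were used.

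Summits (dm6, 1-based) were assigned to genes of Ensembl release 115 with Python 3.11.15, and the code was tested on simulated data. Each pooled summit was matched to the replicate region that contained it or, failing that, to the nearest replicate summit within 200 bp. A region was held by a replicate when at least 1 bp of it overlapped one of that replicate's 2415 best-ranked regions. Sequences are from the RefSeq copy of the same assembly. The member rule uses symbols alone, but it, the lists, roles and motifs were chosen with earlier results of these data known. Named are members with a thresholded summit in the gene or promoter, those nearest to one, paralogs, and for each role the best without one. Further genes were named after their values were seen. Of the listed symbols, 3 regulators and 2 synthetases (second spellings) had no match. Alternatives tried were other windows, starts, list lengths and overlap rules, and leaving out each replicate. The dm3 lists were not used here.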

Additional observations from a re-analysis of the deposited data

How the results depend on the processing

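The count of 8 translation factor genes with a promoter summit (against 1252 protein-coding genes) was 8 with a window of 200 bp (against 855), 9 with 1000 bp (1505), 7 with outermost starts alone (998) and 6 with the better-ranked 1197 regions (701). It was 7, 9 and 8 with the best-ranked regions of replicates 1, 2 and 3 alone (1298, 1346 and 1304). With 4830 regions of the pooled list it was 14, against 2197 protein-coding genes. Counting summits inside the gene too gave 15, a setting for which all protein-coding genes were not counted. Leaving out 1 replicate gave 5 to 7 members with a promoter summit, against 825 to 869 genes. It gave 6 to 7 members with a summit in the gene or promoter, again without a count over all genes. These settings keep fewer regions, which lowers these counts. The same 5 to 7 members also stand beside the 5 with a region held by all replicates. They are those whose region the remaining replicates held, so this is not a separate result. The median position of the summits was -14 and -9 bp from the start in replicates 2 and 3, against 0 bp in the pooled reads. The median rank of the best promoter region, over the members that had one, was 5525.5 and 4784 in replicates 1 and 3, against 3642 in the pooled list, but the lists differ in length. The members with a region held by all 3 replicates could not be counted from the list of 1 replicate. No paired analysis was possible because the 3 replicates form 1 group. Read depth per region is unknown, so absence from a list does not show absence of binding. The rule of a replicate summit within 200 bp, which gave 6 members, was chosen after seeing the data.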
